A study of Mus musculus with 6 samples.

Results

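This report describes 9 complement genes in mouse dorsal skin, chosen by name from the gene table of the single-cell libraries: C1qa, C1qb, C1qc, C2, C3, C4b, Cfb, C3ar1 and C5ar1, which are 9 of 31053 genes measured. All 9 symbols were found, each at 1 row. No measured value was used to choose them. Their level and the share of cells that held them were followed per library across fibroblast subsets, macrophages, Langerhans cells, keratinocytes and vascular cells.

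The libraries came from the skin of 8- to 10-week-old female C57BL/6J mice without a transgene. The Sham group was untreated. The IMQ group received 62.5 mg of 5% imiquimod (IMQ) cream each day for 4 days on shaved back skin, a topical agent that activates Toll-like receptor signalling and gives a psoriasis-like inflammation. The IMQ+SHP099 group received the same cream and, by gavage, 10 mg/kg of SHP099 each day for 4 days. SHP099 blocks the phosphatase SHP2 by holding it in its closed, inactive form. Each group held 2 libraries and each library pooled several mice, fewer in a Sham library than in a treated one, so an error given here is the spread between pools and not between mice.

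Complement is a cascade of plasma and tissue proteins that tags and removes microbes, debris and immune complexes. C1q is assembled from the A, B and C chains encoded by C1qa, C1qb and C1qc, recognises bound antibody and dying cells, and starts the classical pathway. C2 and C4 then form the classical C3 convertase, while factor B (Cfb) forms that of the alternative pathway, which amplifies the cleavage of C3. The fragments C3a and C5a act on the receptors C3AR1 and C5AR1 of myeloid cells. Liver makes most plasma complement, but C1q comes mainly from macrophages and dendritic cells, and skin cells are known to make C3 and factor B locally.

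In the annotation of build GRCm38 the members lay on 4 chromosomes, all on the reverse strand. The 3 C1q chain genes formed a block on chromosome 4, with C1qb at chr4:136880129-136886187, C1qc at chr4:136889804-136893065 and C1qa at chr4:136895917-136898803. On chromosome 17, C4b lay at chr17:34728380-34743882, Cfb at chr17:34856374-34862518, C2 at chr17:34862604-34898265 and C3 at chr17:57203970-57228136. C3ar1 lay at chr6:122847138-122856161 and C5ar1 at chr7:16246743-16259540. The annotated gene Gm20547 overlapped 42.8% of the exon bases of C2 and 79.5% of those of Cfb on the same strand, and it held 0 UMIs in the fibroblasts of all 6 libraries. Reads that fitted several genes could have been left out of the counts, so the levels of C2 and Cfb are uncertain. C4a, a near-identical neighbour of C4b, was not analysed here, and the C4b counts may be uncertain for that reason.

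Promoter windows from RefSeq (build GRCm38.p6, 250 bases before to 50 bases after the start, on the gene's strand) were found for 5 of the 9 members. The 3 shown belong to the member whose level moved in the most cell classes, C3, and to the C1q chain genes with a window, C1qb and C1qc. Capitals in C3 mark a match to the C/EBP-type motif TTGCNNAA and a match to TATAAA, the core of the TATA box. Capitals in the chain genes mark the PU.1-type motif GAGGAA, which stands as its reverse complement in C1qc.
C3, chr17:57228087-57228386, reverse strand: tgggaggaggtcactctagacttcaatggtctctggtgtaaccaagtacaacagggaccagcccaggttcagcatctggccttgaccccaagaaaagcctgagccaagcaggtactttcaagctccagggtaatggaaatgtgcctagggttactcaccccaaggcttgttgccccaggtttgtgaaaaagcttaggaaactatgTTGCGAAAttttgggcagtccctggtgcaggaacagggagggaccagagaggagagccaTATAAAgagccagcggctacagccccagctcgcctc
C1qb, chr4:136886151-136886450, reverse strand: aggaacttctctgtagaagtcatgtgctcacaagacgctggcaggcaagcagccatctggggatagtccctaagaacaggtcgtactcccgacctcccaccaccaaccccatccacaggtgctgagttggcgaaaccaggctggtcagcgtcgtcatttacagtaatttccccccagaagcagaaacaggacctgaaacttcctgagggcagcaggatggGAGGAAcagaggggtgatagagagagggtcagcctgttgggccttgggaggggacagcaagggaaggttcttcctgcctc
C1qc, chr4:136892865-136893164, reverse strand: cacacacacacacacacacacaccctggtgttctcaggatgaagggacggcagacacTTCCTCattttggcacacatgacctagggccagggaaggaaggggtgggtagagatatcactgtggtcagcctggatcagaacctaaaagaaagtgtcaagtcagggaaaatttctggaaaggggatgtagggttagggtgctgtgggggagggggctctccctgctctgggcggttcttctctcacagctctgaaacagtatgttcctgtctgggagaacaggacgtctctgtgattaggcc
Searched on both strands, the C/EBP-type letters occurred in 10.8% of 32851 promoter windows of this length, TATAAA in 13.6% and GAGGAA in 28.3%. In C3 the C/EBP-type match began at position -45 and TATAAA at position 15, counted from the RefSeq start that set the window. For C1qb and C1qc that start is not the gene end in the coordinates given above, so positions counted from those coordinates would differ. The GAGGAA match began at position -30 in C1qb and at position -193 in C1qc. The AP-1 letters TGANTCA (7.81% of windows) and an NF-kB motif (1.63%) occurred in none of the 3 windows, but both occurred in that of C3ar1, which also held TATAAA at position -235. The C5ar1 window held none of the 5 motifs. No match overlapped another in the windows shown. A match describes the letters only, and a missing match says only that these letters are not in the window.

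Cells with fewer than 100000 UMIs (unique molecular identifiers, each counting 1 captured transcript), fewer than 6500 genes and less than 10% mitochondrial UMIs were kept, which left 50850 cells, 7382 to 10293 per library, with 53913865 to 188283327 UMIs per library before that step. Classes were gated on marker genes that include no complement gene. Of the kept cells, 10.5% matched several classes or held too few markers of their best class and were left out. IMQ+SHP099 1 stood apart from its own group, and it held 5289 keratinocytes but 57 macrophages. Its summed profile was closest to Sham 1 (Pearson r = 0.9672 across genes) and IMQ 1 (r = 0.9668). It was less like IMQ+SHP099 2 (r = 0.939) and least like Sham 2 (r = 0.9335). Pairs of libraries shared 12 to 30 cell barcodes. The levels below are UMIs per 1000000 (UPM) of all UMIs summed over a class in a library, and values are listed in the order Sham 1, Sham 2, IMQ 1, IMQ 2, IMQ+SHP099 1, IMQ+SHP099 2. The values were not scaled to transcript length, so levels were compared between classes and groups. Where genes are ordered by UPM below, that order describes the counts only, and the C1qa to C1qb ratio was compared between classes.

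Each gene had a class of highest level. The 3 C1q chains and C3ar1 were highest in resident-type macrophages, gated on Mrc1, Cd163, Pf4, Folr2, Cbr2 and Gas6. C2, C3 and C4b were highest in fibroblasts gated on Plac8 and Cxcl13, Cfb by its median over libraries in fibroblasts gated on Cyp2f2 and Lum, and C5ar1 in neutrophils. By the median over libraries, the class with the highest level was also that with the highest share of cells with a UMI for all 9 genes. For Cfb the share was higher in the Plac8/Cxcl13 than in the Cyp2f2/Lum gate in Sham 1, Sham 2, IMQ 1 and IMQ 2, and lower in both IMQ+SHP099 libraries.

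**Figure D1:**
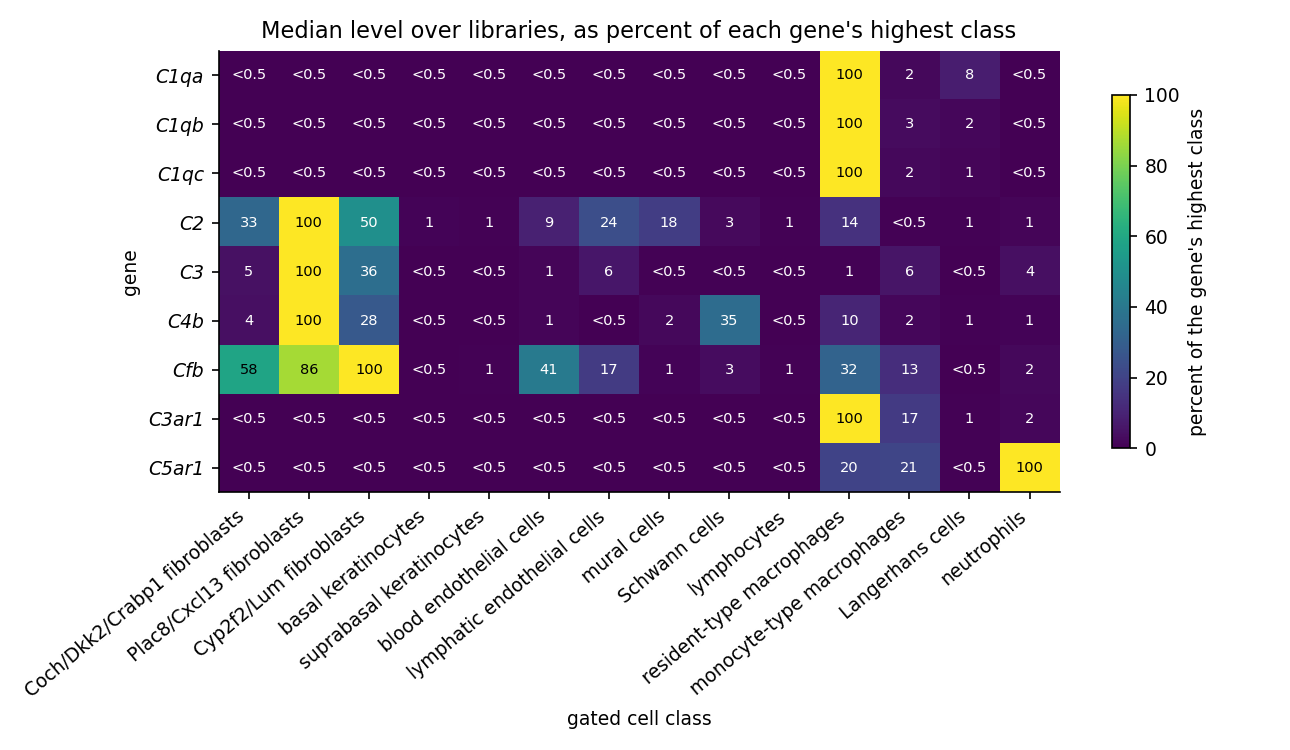
Level of each member in each gated class, as the median UPM over the libraries and as a percent of that gene's highest class; libraries with at least 20 cells of the class were used. The chains of C1q and C3ar1 stand out in resident-type macrophages, C2, C3, C4b and Cfb in fibroblasts, and C5ar1 in neutrophils.

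Of the chains of the recognition subunit, C1qb and C1qc had most of their UMIs in macrophages, at 69.2% to 87.1% and 65.9% to 86.1% per library. For C1qa that share was 44.6% to 83.4%, with 2.72% to 32% in Langerhans cells and 4.09% to 33.1% in ungated cells. In resident-type macrophages, C1qa stood at 4504, 2953, 4382, 4960, 5223 and 5170 UPM. C1qb stood at 5560, 2041, 5009, 5822, 5794 and 6113 UPM and C1qc at 3112, 1537, 3125, 3386, 3321 and 3892 UPM. Sham 2 was the lowest library for all 3 chains, and the other Sham library lay among or just below the treated ones. None of the chains passed the test between IMQ and Sham in these cells (C1qa log2 fold change 0.24, SE 0.35, edgeR adjusted p = 0.872). The class was small, with 31, 365, 44, 44, 26 and 20 cells.

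At the level of single cells, all 3 chains were found together in 90.3%, 71.5%, 75%, 81.8%, 80.8% and 90% of resident-type macrophages. C1qb was found in 78.1% to 100% of these cells at a median depth of 3130 to 7945.5 UMIs. Among keratinocytes, which are not a source of C1q, it was found in 0.405% to 1.48% of cells, at a higher median depth of 9712 to 35245 UMIs. That share was read as background.

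Macrophages gated on Ly6c2, Ccr2, Chil3, Vcan, Ms4a4c, Thbs1 and Arg1, called monocyte-type here, held less C1q after IMQ. C1qa stood at 2017, 189.5, 104.8, 77.37, 812.8 and 76.06 UPM in them, and C1qb at 2626, 345.3, 171.9, 135, 879.3 and 136.2 UPM. Both Sham libraries lay above both IMQ libraries, and they differed from each other more than Sham 2 differed from IMQ. C1qa fell by 3.12 on the log2 scale between Sham and IMQ (SE 0.90, edgeR quasi-likelihood test, Benjamini-Hochberg adjusted p = 0.0492) and C1qb fell by 2.85 (SE 0.76, adjusted p = 0.0323). C1qc, at 1084, 100.2, 67.38, 52.72, 524.6 and 58.86 UPM, had a log2 fold change of -2.65 and did not pass (adjusted p = 0.0927). Sham 1 held 16 such cells and IMQ+SHP099 1 held 27. Without Sham 1 the fold changes were -0.86 for C1qa and -0.97 for C1qb, and neither passed, nor did either without Sham 2 or by DESeq2.

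Other myeloid markers moved with this result. The summed level of the 9 dendritic cell markers in the monocyte-type gate was 551.75 UPM in Sham 1, 1619.91 UPM in Sham 2 and 14.78 to 55.69 UPM in the 4 treated libraries, led by Mgl2 and Cd209a, while Xcr1 and Clec9a were at or near 0. The Langerhans markers, summed and led by Cd74, stood at 27.6% (Sham 1) and 70.5% (Sham 2) of their level in Langerhans cells and at 3.78% to 4.85% of it after treatment, with Cd207 at 0 to 7.39 UPM in all 6. The same lists moved in the resident-type gate, where the dendritic markers summed to 756.95 UPM in Sham 1, 1799.32 UPM in Sham 2 and 11.93 to 133.92 UPM after treatment, and Cd74 stood at 16606.24, 17094.04, 717.99, 4199.41, 3213.97 and 2594.45 UPM. The part of these cells in the levels of the members in both gates was not tested.

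The response of C1q to IMQ differed between the macrophage gates. In 1 fit over both gates, with the library as a block, the log2 response to IMQ in monocyte-type minus resident-type macrophages was -2.87 for C1qa (SE 0.76, adjusted p = 0.045), -3.09 for C1qb (SE 0.57, adjusted p = 0.00394) and -2.75 for C1qc (SE 0.72, adjusted p = 0.0407). C5ar1 also passed, with a difference of 2.64. C3, with 2.42, was under the filter in resident-type cells and entered through the gate in which it was high, so the count of 5 members with it is not read against the background of 2.97% of genes. Leaving out Sham 2 left 0 of them, and leaving out IMQ 1 left 1.

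In macrophages as a whole, the gate mix shifted. Resident-type cells made up 64.6%, 69.1%, 9.46%, 10.2%, 45.6% and 7.02% of macrophages. C1qa was high in the same 3 libraries, at 3648, 1839, 661, 633.2, 2744 and 451.7 UPM. The Sham libraries were above the IMQ libraries, and IMQ+SHP099 1 lay with Sham. The C1qa difference between IMQ and Sham, -1.94 (SE 0.63), did not pass (adjusted p = 0.117), nor did those of C1qb (-1.74) and C1qc (-1.77).

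Langerhans cells, the dendritic-like cells of the epidermis, held the C1q chains below the resident-type macrophages. Their C1qa level was above that of monocyte-type macrophages in IMQ 1, IMQ 2 and IMQ+SHP099 2, and below it in the other libraries. C1qa stood at 198.6, 101, 398.5, 409, 413.1 and 347.5 UPM, C1qb at 64.08, 51.83, 86.5, 127.3, 108.3 and 116.6 UPM, and C1qc at 25.63 to 54.87 UPM. Both Sham libraries were below all 4 treated libraries for C1qa and C1qb. Of the Langerhans markers in this gate, Sham 2 was lowest for Epcam (197.81 beside 569.49 to 830.35 UPM elsewhere), Ltc4s (97.85 beside 548.4 to 756.54 UPM) and Cd207. Cd207 stood at 844.67 UPM beside 935.6 to 4049.05 UPM. Sham 2 was not lowest for Cd74 or H2-M2. Its dendritic markers summed to 1473.55 UPM beside 466.36 to 1430.97 UPM, with Xcr1 at 183 beside 0 to 6.34 UPM. The part of these differences in the C1q levels was not tested. The C1qa change with IMQ was 1.38 (SE 0.41) at an unadjusted p of 0.0112 from edgeR, and it did not pass over all genes (adjusted p = 0.514), where 0% of genes passed.

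The ratio of C1qa to C1qb was 1.95 to 4.61 in Langerhans cells, 0.81 to 1.45 in resident-type and 0.549 to 0.924 in monocyte-type macrophages. It was higher in Langerhans cells than in resident-type macrophages of the same library in 6 of 6 libraries, with a mean log2 difference of 1.76 ± 0.68 (SD, n = 6, exact two-sided sign-flip permutation p = 0.0312, the smallest that 64 flips can give; adjusted p = 0.0468 over 3 comparisons). Against monocyte-type macrophages the difference was 2.28 ± 0.40 (SD, n = 6, exact p = 0.0312, adjusted p = 0.0468). The macrophage gates differed by 0.52 ± 0.51 (SD) in 5 of 6 libraries (exact p = 0.0625). All 3 chains were found together in 3.9% to 23.3% of Langerhans cells. The ratio was chosen after the levels had been seen.

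**Figure D2:**
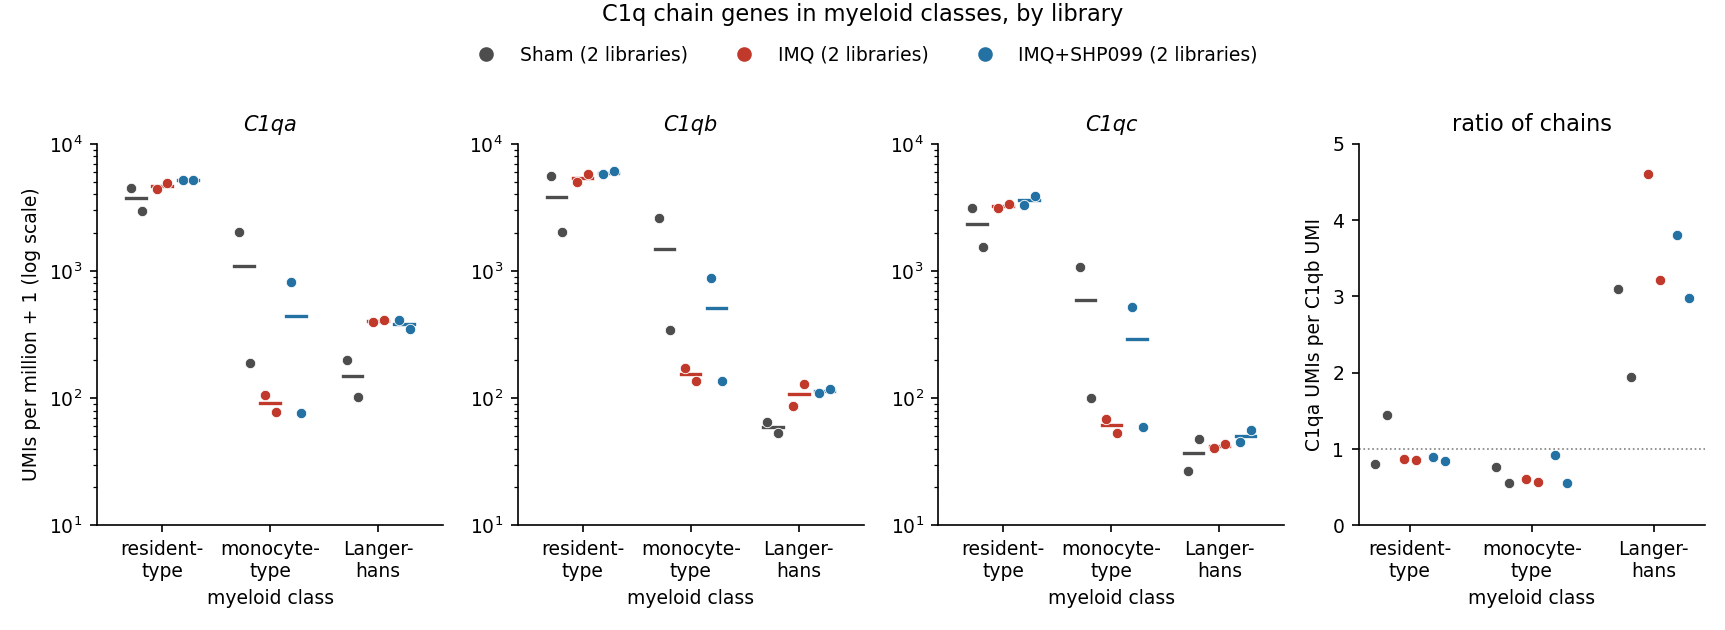
C1qa, C1qb and C1qc in resident-type macrophages, monocyte-type macrophages and Langerhans cells, in UPM with a point for each library, and the ratio of C1qa to C1qb in the same libraries. The ratio lies at 1.95 or above in Langerhans cells and at 1.45 or below in both macrophage gates.

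Most UMIs of the early classical components C4b and C2 were in fibroblasts. Fibroblasts were split into 3 gates named by their genes: Plac8/Cxcl13, Cyp2f2/Lum and Coch/Dkk2/Crabp1. Of all UMIs of C4b in a library, 78.1% to 95% were in fibroblasts, and for C2 51.3% to 90.2%. The shares of the gates among fibroblasts differed between libraries, the Coch gate taking 3.32%, 12.2%, 20.2%, 12.3%, 10.2% and 11%, and the Plac8 gate 37.8%, 5.61%, 25.8%, 30.4%, 18.9% and 37.9%. Values are therefore given within the gates.

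C4b, the mouse C4 of the classical and lectin pathways, was at 1421, 1408, 1281, 1554, 1070 and 1971 UPM in Plac8/Cxcl13 fibroblasts. It stood at 253.5, 178.8, 418.1, 471.3, 376.3 and 603.7 UPM in Cyp2f2/Lum fibroblasts and at 0, 3.12, 93.21, 70.22, 58.82 and 61.95 UPM in Coch/Dkk2/Crabp1 fibroblasts. In every library the order of the gates was the same. The groups overlapped in the Plac8 gate, and both Sham libraries lay below all 4 treated ones in the other gates. Sham 1 held 35 Coch-gated cells, whose 0 C4b UMIs of 197564 allow up to 15.2 UPM (3 counts), and counting limits of this kind cover counting error only.

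With IMQ, C4b rose by 5.07 on the log2 scale in Coch-gated fibroblasts (SE 0.45, edgeR adjusted p = 0.000406). The change was 1.04 in Cyp2f2/Lum (SE 0.38, adjusted p = 0.224) and -0.01 in Plac8/Cxcl13 fibroblasts (SE 0.41, adjusted p = 0.999), neither past the threshold. The response in the Coch gate exceeded that in the Plac8 gate by 4.91 (SE 0.54, adjusted p = 0.00252) and that in the Cyp2f2 gate by 3.55 (SE 0.45, adjusted p = 0.000396).

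C2, the protease that pairs with C4b, was also highest in the Plac8 gate, at 179.5, 256.7, 135, 103.7, 105.4 and 136.6 UPM. In the Coch gate it stood at 25.31, 19.68, 44.49, 45.99, 59.72 and 64.64 UPM. The Sham libraries were the highest in the Plac8 gate and the lowest in the Coch gate. C2 rose by 1.40 in the Coch gate (SE 0.30, adjusted p = 0.0211), a call lost by DESeq2 and without Sham 2, IMQ 1 or IMQ 2. In the Plac8 gate its change of -0.83 (SE 0.32) did not pass (adjusted p = 0.384), and in the Cyp2f2 gate it was 0.26. The responses of the Coch and Plac8 gates differed by 2.31 (SE 0.32, adjusted p = 0.00682).

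Outside fibroblasts C2 fell with IMQ in keratinocytes and macrophages. In mural cells (pericytes and smooth muscle) it was at 53.01, 91.19, 25.68, 23.4, 16.43 and 15.68 UPM, with both Sham libraries above all 4 treated ones. That difference of -1.42 (SE 0.24) did not pass (adjusted p = 0.0619). In Sham 2 the mural level of C2 was 124% of that of all fibroblasts, and in each other library it was below theirs. In keratinocytes C2 was at 4.934, 3.057, 0.6742, 0.9941, 0.7736 and 1.443 UPM and fell by 2.07 (SE 0.53, adjusted p = 0.0372). The call was lost at the looser gate margin, without Sham 1, without either IMQ and without either IMQ+SHP099 library. In basal keratinocytes C2 was at 7.131, 4.941, 0.869, 1.161, 0.8393 and 1.084 UPM, and in suprabasal keratinocytes at 0.7947, 0.6981, 0.5284, 0.8694, 0.6725 and 1.769 UPM, where the groups overlapped. In macrophages it fell by 3.81 (SE 0.66, adjusted p = 0.00754) on 3, 79, 3, 6, 3 and 1 UMIs, and this call was lost without Sham 2, without IMQ 1 and by DESeq2. Resident-type cells held 3, 79, 1, 4, 3 and 0 C2 UMIs and monocyte-type cells 0, 0, 2, 2, 0 and 1. The share of resident-type cells given above moved with this fall, and its part in it was not tested.

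C4b was also found in Schwann cells and macrophages. Schwann cells of the 4 libraries with at least 20 such cells held 444.2, 602.2, 555.1 and 357.6 UPM in Sham 2, IMQ 1, IMQ 2 and IMQ+SHP099 2. Resident-type macrophages held 93.45, 346.9, 76.33, 220.1, 133.9 and 158.7 UPM without a group order. In Sham 2 C4b stood at 207% of the level of all fibroblasts in Schwann cells and at 161% of it in resident-type macrophages. In the other libraries both classes were below fibroblasts. In macrophages as a whole, at 68.24, 217.7, 26.64, 54.8, 57.41 and 33.21 UPM, C4b fell by 1.81 with IMQ (SE 0.46, adjusted p = 0.0459). Without Sham 2 that change was -0.66, and the call was also lost by DESeq2, at the looser gate margin and without IMQ 1 or IMQ 2. The share of resident-type cells given above moved with it, and within resident-type cells the change was -0.77 (SE 0.55, adjusted p = 0.696).

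C3, on which all pathways converge, was carried by fibroblasts, with 84.1% to 95.7% of its UMIs in each library. Its level in Plac8/Cxcl13 fibroblasts was 2448, 3674, 5235, 4754, 3842 and 5944 UPM, and 95.6% to 99.8% of these cells held it. In Cyp2f2/Lum fibroblasts it was 470.2, 564.4, 1864, 1753, 1356 and 2325 UPM. In Coch/Dkk2/Crabp1 fibroblasts it was 5.062, 16.56, 184.2, 259, 205.4 and 282 UPM. All 4 treated libraries lay above both Sham libraries in each gate, and the gap was widest as a ratio in the Coch gate and in UPM in the Plac8 gate.

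The ratio of mean C3 levels, IMQ over Sham, was 20.5 in the Coch gate, 3.5 in the Cyp2f2 gate and 1.63 in the Plac8 gate. C3 rose by 4.17 in the Coch gate (SE 0.41, adjusted p = 0.000625) and by 1.86 in the Cyp2f2 gate (SE 0.36, adjusted p = 0.037). The change of 0.74 in the Plac8 gate did not pass (SE 0.40, adjusted p = 0.625). The call in the Cyp2f2 gate was lost without Sham 1, Sham 2, IMQ 1, IMQ 2 or IMQ+SHP099 1. The response of the Coch gate exceeded that of the Plac8 gate by 3.52 (SE 0.40, adjusted p = 0.00255) and that of the Cyp2f2 gate by 2.20 (SE 0.32, adjusted p = 0.000894).

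The share of cells told the same at a fixed depth. With each cell thinned to 2000 UMIs, C3 was found in 0.468%, 1.78%, 22.4%, 19.7%, 21.4% and 29.4% of Coch-gated cells, and unthinned in 2.86%, 6.35%, 42.9%, 38.5%, 30.9% and 42.8%. Sham 1 and Sham 2 gave 1 and 25 cells with a UMI. Keratinocytes thinned in the same way gave 0.563% (Sham 1) to 3.95% (IMQ+SHP099 2), at a median of 9712 to 35245 UMIs per cell against 4610 to 8362.5 in the Coch gate. The Sham shares of the Coch gate lay within or below this range and the treated shares above it. The range covers Sham and treated libraries, and keratinocytes may hold C3 of their own, so it is not an established background. Cells with both C3 and C4b made up 0%, 0.254%, 13.3%, 12.1%, 5.15% and 9.75% of the Coch gate, 23.2% to 59.2% of the Cyp2f2 gate and 88.4% to 97.4% of the Plac8 gate.

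Cfb, the protease of the alternative C3 convertase, was at 42.51, 22.85, 190.4, 120.7, 127.2 and 225.7 UPM in Cyp2f2/Lum fibroblasts. In Coch-gated fibroblasts it was at 10.12, 4.08, 85.76, 63.5, 81.44 and 100 UPM, and in Plac8/Cxcl13 fibroblasts at 106, 55.67, 229.1, 107.1, 107.1 and 141.1 UPM. Every treated library exceeded both Sham libraries in each gate, by a narrow margin in the Plac8 gate. In Sham 1, Sham 2 and IMQ 1 Cfb was higher in the Plac8 than in the Cyp2f2 gate, and in the other 3 libraries it was lower. Cfb rose by 4.30 in the Coch gate (SE 0.45, adjusted p = 0.000759) and by 2.28 in the Cyp2f2 gate (SE 0.48, adjusted p = 0.0474), and its change of 1.00 in the Plac8 gate did not pass (adjusted p = 0.607). The call in the Cyp2f2 gate was lost at both other gate margins and without Sham 2, IMQ 1, IMQ+SHP099 1 or IMQ+SHP099 2.

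**Figure D3:**
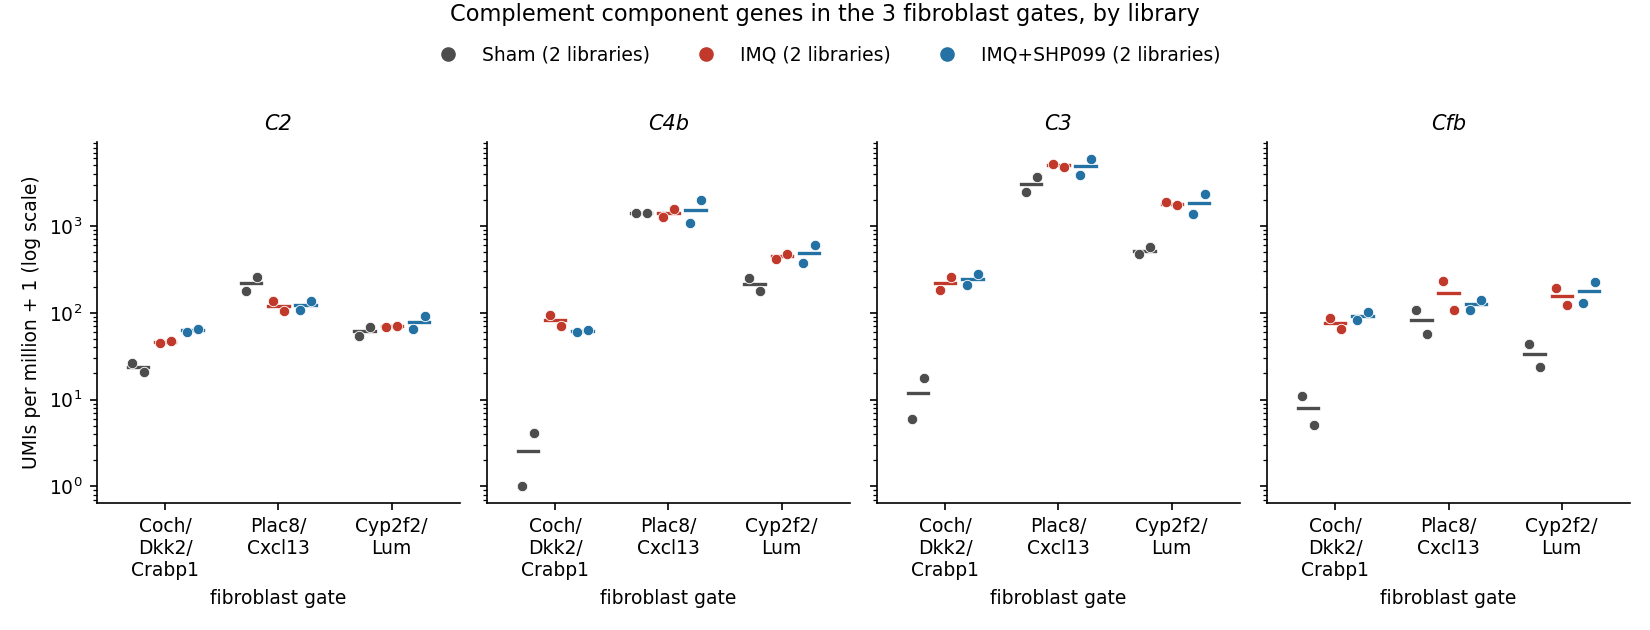
C2, C4b, C3 and Cfb in the 3 fibroblast gates, in UPM plus 1 on a log scale; each point is a library and each short line the group mean. Sham points lie below the treated points for C3 and Cfb in each gate, and for C2 and C4b in the Coch/Dkk2/Crabp1 gate.

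In the Coch gate 4 of the 9 members passed the filter on low counts and the other 5 did not. C3, C4b and Cfb passed it through the treated libraries, in which they were high, so nothing is read from the number that rose, which was 4, against the background of 7.58% of genes in either direction and 3.41% upward. In the Cyp2f2 gate 2 of 7 members passed, beside 2.92% of genes, with a median of 0.26. In the Plac8 gate 0 of 7 passed in edgeR, with 4 at an unadjusted p under 0.05 and 0 in DESeq2, beside 0.59% of genes. In fibroblasts of all gates combined 0 of 9 passed, with 2 at an unadjusted p under 0.05 and 0 in DESeq2, beside 0.59% of genes. Keratinocyte markers stood at 0.381% to 1.49% of their keratinocyte level in the Coch gate. The 8 macrophage markers summed to 8.43%, 9.96%, 25.5%, 34.8%, 14.8% and 27.3% of their macrophage level there and were lower in Sham. The defining markers Csf1r and Adgre1 were at 0 to 1.59 UPM in that gate. All 4 calls in the Coch gate were lost without Sham 2, which left the 35 cells of Sham 1 as the Sham group. The fold changes were then 1.00 for C2, 5.60 for C3 and 3.05 for Cfb on the log2 scale, at adjusted p of 0.0585 to 0.506 for the 4 genes, and none is given for C4b, which Sham 1 held at 0 UMIs.

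The differences of response between gates were tested for the same members, after the values had been seen. Between the Coch and Plac8 gates the 4 fibroblast members passed, where 3.19% of genes did, and between the Coch and Cyp2f2 gates the same 4 passed, beside 11.1% of genes. Without Sham 2, 0 passed in either. Between the Cyp2f2 and Plac8 gates, differences of 1.10 to 1.29 for C2, C3, C4b and Cfb had adjusted p of 0.0529 to 0.0966, so 0 passed in edgeR beside 0.421% of genes, with 6 members at an unadjusted p under 0.05. DESeq2 was not run for the differences.

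**Figure D4:**
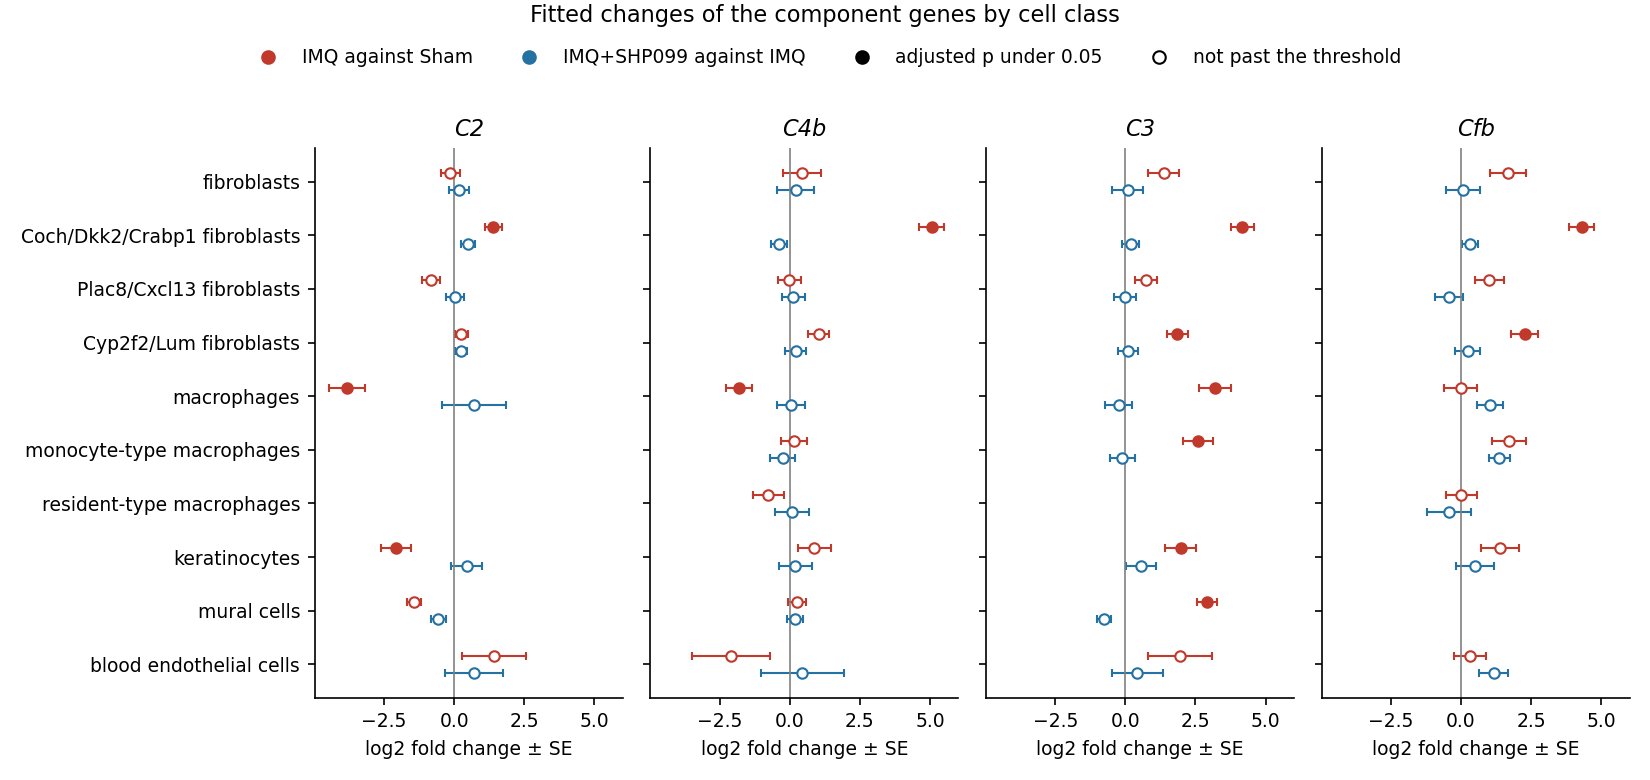
Log2 fold change with its standard error for C2, C4b, C3 and Cfb in 10 class sums, for IMQ against Sham in red and IMQ+SHP099 against IMQ in blue; filled points had an adjusted p under 0.05. The filled red points of the Coch/Dkk2/Crabp1 gate lie between 1.40 and 5.07, and no blue point is filled.

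C3 also rose outside fibroblasts. In monocyte-type macrophages it stood at 0, 66.55, 248.5, 364.5, 192.1 and 336 UPM, and the 0 of Sham 1 allows up to 57.1 UPM. The 4 treated libraries were above both Sham libraries. C3 rose by 2.59 with IMQ (SE 0.52, adjusted p = 0.00624), a call lost by DESeq2 and without Sham 2. Thinned to 2000 UMIs, it was found in 0%, 13.8%, 35.6%, 46.4%, 30.8% and 44.8% of these cells, beside 1.24% to 4.92% in Schwann cells of the libraries with at least 20 of them. Fibroblast markers in the gate were at 0.123% to 0.44% of their fibroblast level, while C3 in the 5 libraries other than Sham 1 was at 9.53% to 14.4% of its fibroblast level. In resident-type macrophages it stayed at 18.69 to 46.66 UPM and was not tested there, being under the filter.

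In macrophages as a whole C3 was at 12.41, 40.52, 217.3, 324.5, 111 and 311 UPM. It rose by 3.20 (SE 0.57, adjusted p = 0.00901), and the call was lost without Sham 2. Counting both directions, 3 of 9 members passed in macrophages (C2, C3 and C4b), beside 5.25% of genes. In monocyte-type macrophages 4 of 8 passed (C1qa, C1qb, C3 and C5ar1), beside 7.01% of genes, and 0 by DESeq2. In resident-type macrophages 0 of 7 passed in edgeR, in DESeq2 and at an unadjusted p under 0.05, beside 0.495% of genes.

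In keratinocytes C3 was at 3.333, 5.428, 11.37, 16.28, 6.893 and 34.43 UPM and rose by 1.98 (SE 0.56, adjusted p = 0.0493). The level was 0.25% to 1% of that in fibroblasts of the same library, and fibroblast markers in keratinocytes were at 0.225% to 0.674% of their fibroblast level. The part of free fibroblast RNA in this change was not tested. With C2, 2 of 7 members passed in keratinocytes, beside 14.1% of genes. The C3 call was lost at the stricter gate margin and without any of the 4 libraries of the Sham and IMQ groups.

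Vascular cells differed among themselves. In mural cells C3 was at 3.656, 4.688, 25.96, 31.63, 19.95 and 14.78 UPM and rose by 2.92 (SE 0.34, adjusted p = 0.039), as the only call among 3 members tested, beside 0.325% of genes. Fibroblast markers in mural cells were at 2.92% to 12.8% of their fibroblast level, C3 at 0.274% to 1.25%, and the call was lost at the stricter margin, at a 5% mitochondrial limit and without Sham 2, IMQ 1 or IMQ 2. Lymphatic endothelial cells held C3 at 244.3, 215.8, 286.8, 291.2, 379.7 and 240.9 UPM, with overlapping groups and a change of 0.35 (SE 0.29, adjusted p = 0.614). Blood endothelial cells held Cfb at 86.77, 27.6, 42.95, 46.16, 55.16 and 138.6 UPM, again with overlap. In edgeR, 0 of 3 members passed in lymphatic cells (0 unadjusted, 0 in DESeq2, beside 1.24% of genes) and 0 of 4 in blood endothelial cells (0 unadjusted, 0 in DESeq2, beside 0.109%). In Langerhans cells 0 of 6 passed, with 2 unadjusted and 0 in DESeq2.

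The receptors were myeloid genes. C3ar1, the receptor for C3a, was at 196.2, 201.6, 305.3, 406.5, 446.4 and 560 UPM in resident-type macrophages and at 152.2, 67.33, 60.5, 60.68, 66.5 and 53.57 UPM in monocyte-type macrophages. Both Sham libraries were below all 4 treated ones in resident-type cells. In monocyte-type cells Sham 1 was high, and Sham 2 was within 1 UPM of IMQ+SHP099 1. The change with IMQ in resident-type cells was 0.77 (SE 0.36), short of the threshold (adjusted p = 0.463), and that of IMQ+SHP099 against Sham was 1.35 (SE 0.37, adjusted p = 0.135). In fibroblasts and keratinocytes C3ar1 was under 0.5 UPM in every library.

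C5ar1, the receptor for C5a, was highest in neutrophils, at 604.9, 585.6 and 682.3 UPM in IMQ 1, IMQ 2 and IMQ+SHP099 2. The other 3 libraries held 4, 12 and 12 neutrophils, too few for a comparison between groups. In monocyte-type macrophages C5ar1 was at 57.08, 25.05, 127.2, 135.4, 59.11 and 125.7 UPM. Both IMQ libraries were above both Sham libraries, and IMQ+SHP099 1 lay beside Sham 1. C5ar1 rose by 2.37 with IMQ (SE 0.44, adjusted p = 0.00324), and the call was lost by DESeq2 and without Sham 2. Neutrophil markers in these cells summed to 38.05 UPM in Sham 1, 109.61 UPM in Sham 2 and 453.71 to 3310.18 UPM after treatment, highest in IMQ+SHP099 1. S100a9 led the treated sums at 287.04 to 3125.46 UPM and was at 0 and 0.78 UPM in Sham. Retnlg and Cxcr2 were at 0 to 7.59 UPM and Ly6g at 0 UPM in every library. The part of these markers' cells in the C5ar1 rise was not tested. In resident-type macrophages the level was 102.8, 189, 138.4, 158.9, 107.1 and 56 UPM with a change of -0.12 (SE 0.39, adjusted p = 0.952). The responses of the macrophage gates differed by 2.64 (SE 0.49, adjusted p = 0.0038).

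**Figure D5:**
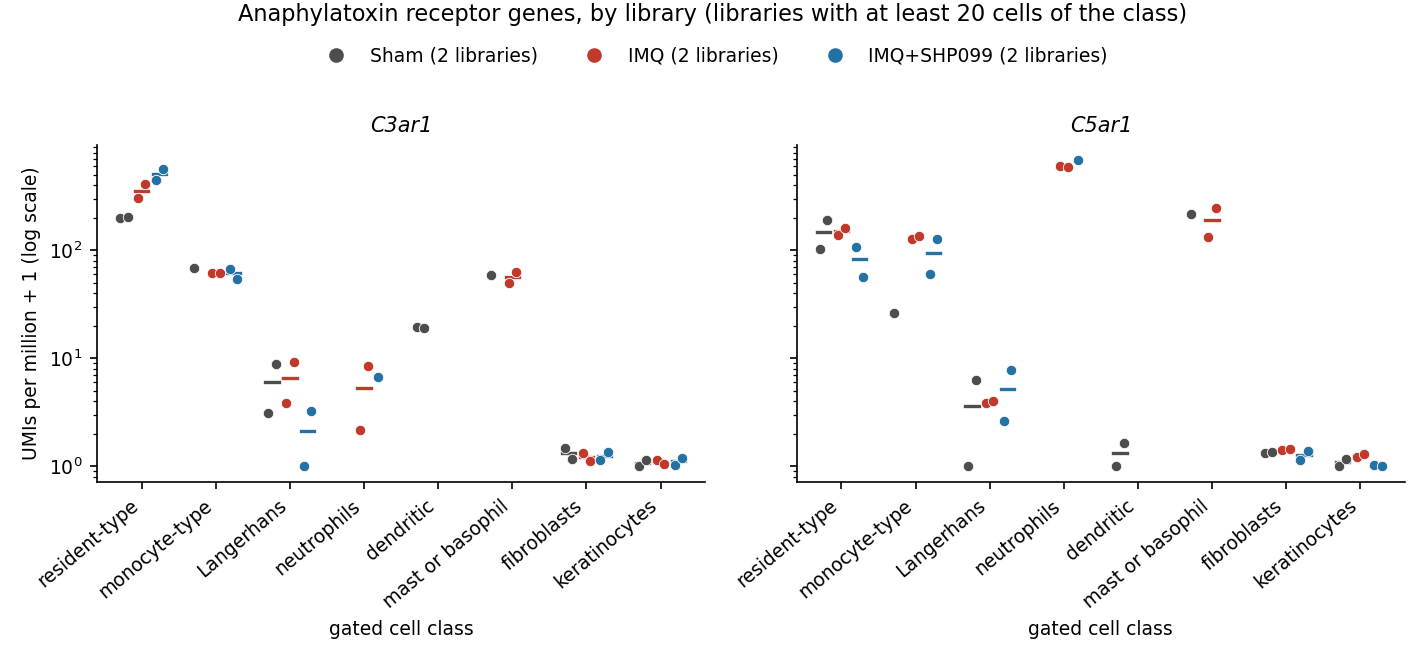
C3ar1 and C5ar1 in 8 gated classes, in UPM, with a point for each library with at least 20 cells of the class. C3ar1 is highest in resident-type macrophages, and C5ar1 in neutrophils at 585.6 to 682.3 in the 3 libraries shown.

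The effect of adding SHP099 was asked by comparing IMQ+SHP099 with IMQ. None of 74 tests of members in 12 class sums passed in edgeR, with 6 at an unadjusted p under 0.05 and 0 in DESeq2. The background was 0% in 10 of the class sums, 0.0121% in blood endothelial and 0.0141% in lymphatic endothelial cells. In the Coch gate the changes were 0.51 for C2 (SE 0.25), 0.19 for C3 (SE 0.31), -0.40 for C4b (SE 0.28) and 0.33 for Cfb (SE 0.29), all at an adjusted p of 1. In the Cyp2f2 gate those of C3 and Cfb were 0.09 (SE 0.35) and 0.25 (SE 0.45), and in the Plac8 gate -0.01 (SE 0.39) and -0.43 (SE 0.51).

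The 6 unadjusted differences lay in 3 sums. In monocyte-type macrophages Cfb was at 19.03, 6.264, 16.16, 25.41, 14.78 and 58.86 UPM, with a change of 1.37 (SE 0.37, unadjusted p = 0.00195, edgeR adjusted p = 1). IMQ+SHP099 2 was the highest library and IMQ+SHP099 1 was below both IMQ libraries. The 3 C1q chains in the same gate were 1.59 to 2.11 above IMQ on the log2 scale, and for them IMQ+SHP099 1, with 27 cells, was high while IMQ+SHP099 2 lay at the IMQ level. Cfb in blood endothelial cells was 1.16 above IMQ (SE 0.52), and C3 in mural cells was 0.76 below it (log2 fold change -0.76, SE 0.25).

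Against Sham, the IMQ+SHP099 libraries gave 11 calls, all of them rises, of 74 tests. These comparisons share the Sham libraries with IMQ against Sham and are not independent of it. In the Coch gate C2 rose by 1.90, C3 by 4.36, C4b by 4.68 and Cfb by 4.63, at adjusted p of 0.00125 to 0.00827, beside 5.52% of genes. In the Cyp2f2 gate C3 rose by 1.95 and Cfb by 2.53, beside 2.18% of genes, and in monocyte-type macrophages C3 rose by 2.48, C5ar1 by 2.12 and Cfb by 3.07, beside 5.77%. C3 rose by 2.96 in macrophages, beside 2.96% of genes, and by 2.55 in keratinocytes, beside 15.4%. All 11 calls were lost without Sham 2. Of 12 alternatives, the calls in the Coch gate were each kept in 11. In the Cyp2f2 gate that of C3 was kept in 6 and that of Cfb in 8. Those of C3 in macrophages and in keratinocytes were kept in 9 each. The 3 in monocyte-type macrophages were also lost by DESeq2 and without IMQ+SHP099 2, where the log2 fold changes were 1.87 for C3, 1.28 for C5ar1 and 1.25 for Cfb. For Cfb, IMQ+SHP099 1 lay below Sham 1 in that gate, and without Sham 2 the changes of C5ar1 and Cfb were 1.35 and 1.88. No member passed in edgeR in fibroblasts of all gates (2 unadjusted), Plac8/Cxcl13 fibroblasts (3), blood endothelial cells (1), resident-type macrophages (1), Langerhans cells (3) or lymphatic cells (0), with 0 in DESeq2 in each, nor in mural cells (2 unadjusted and 2 in DESeq2). The backgrounds were 0.254%, 0.0832%, 0.158%, 0.33%, 0.0839%, 0.705% and 0.0527% of genes in that order.

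Of 47 other complement genes listed, 46 were found. In Coch-gated fibroblasts the C1 proteases C1ra and C1s1 rose with IMQ, by 1.84 and 1.37 on the log2 scale, both also by DESeq2, and none of the 12 listed genes tested fell, in a gate where 7.58% of genes passed. In lymphatic endothelial cells Susd4 fell, of 10 tested. In edgeR 0 of 27 passed in fibroblasts of all gates (9 unadjusted, 3 in DESeq2) and 0 of 18 in the Plac8 gate (6 unadjusted, 1 in DESeq2).

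In keratinocytes 2 of 21 rose, C1ra by 2.32 and C1s1 by 2.02, and 3 fell, beside 14.1% of all genes, and DESeq2 called 7. The membrane regulator Cd55, which speeds the decay of C3 convertases, was at 104.9, 53.04, 3.045, 3.397, 4.788 and 3.917 UPM and fell by 4.42, with both Sham libraries more than 10 times above every treated library. Cd59a, which blocks the membrane attack complex, fell by 1.81, and Clu by 1.89. In macrophages 1 of 15 rose, Cd93 by 2.58, and 4 fell: the ficolin Fcna by 3.82, Colec12 by 3.91, Cd55 by 2.44 and the integrin Itgax, a subunit of complement receptor 4, by 2.03, beside 5.25% of all genes. In monocyte-type macrophages Cd93 rose and Itgax fell, of 10 tested, beside 7.01%. DESeq2 called 1 gene, Cd93, in each of these sums. The share of resident-type cells among macrophages and the dendritic markers given above moved with these falls, and their part in them was not tested. In edgeR 0 passed in blood endothelial cells (12 tested, 1 unadjusted), mural cells (18, 5 unadjusted), resident-type macrophages (7, 2 unadjusted) or Langerhans cells (9, 1 unadjusted), with 0 in DESeq2 in each. Between IMQ+SHP099 and IMQ, 0 passed in any sum by either tool.

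By level, the C1 inhibitor Serping1 led the listed genes in Plac8/Cxcl13 fibroblasts, at 1841, 1808, 2439, 2025, 2031 and 2165 UPM, followed by C1s1, C1ra and Cd55. In both macrophage gates the order began with Itgam, the alpha chain of complement receptor 3, properdin (Cfp) and Itgb2, the beta chain. Itgam was at 383.1, 205.8, 913.6, 929.1, 910.6 and 1027 UPM in resident-type macrophages, both Sham libraries below all 4 treated ones, and at 532.7, 210.6, 525.3, 506.3, 568.9 and 397.5 UPM in monocyte-type macrophages, where the groups overlapped. In neither gate did it pass the test.

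Over 78 library-by-class sums, the gene whose log2 level followed each member most closely was sought as a description, since the sums share libraries and depth. The nearest were Ly86 for C1qa (Pearson r = 0.929), Clec4a1 for C1qb (0.947), Slamf9 for C1qc (0.941), Sirpb1a for C3ar1 (0.958) and Hk3 for C5ar1 (0.976). Clec4a1 was among the nearest 3 for each C1q chain. The fibroblast members had looser neighbours, Il11ra1 for C2 (0.886), Pnp for C3 (0.813), Ctsl for Cfb (0.816) and Nova1 for C4b (0.786).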

How the data were processed

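Single-cell RNA libraries of mouse dorsal skin (10x Genomics, 3 groups of 2) were analysed from the count matrices that the authors deposited: UMI counts per gene and cell from Cell Ranger 3.1.0, with reads aligned to build mm10 (GRCm38) per the submitters' processing notes. Cells over 100000 UMIs, 6500 genes or 10% mitochondrial UMIs were removed by the limits the study states, which left more cells than the study counted. Doublets were not called. Cells were gated into main classes on at least 3 detected markers of a class, with the second class score at most 0.5 of the first (0.35 and 0.7 as alternatives). Subsets within a main class, among them the fibroblast, macrophage and Langerhans gates, went to the subset list with the highest score, without a margin. The fibroblast gates also needed at least 2 UMIs of their list. UMIs were summed per library and class, and edgeR 4.0.16 (R 4.3.3, quasi-likelihood test, TMM, filterByExpr, group as the only factor) was fitted over all genes with Benjamini-Hochberg adjustment at 0.05. It was tested on simulated counts. DESeq2 1.42.0 was an alternative. Detection was also computed at 2000 UMIs per cell. The genes named were the 9 members and, from a list of 47 other complement genes, those past the threshold and those leading by level. Results of some listed genes are not reported here. Members, lists and gates were chosen with earlier results of these data known. P-values measure the spread between libraries, each a pool of mice.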

Additional observations from a re-analysis of the deposited data

Results flagged for a closer look

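For C2 and C4b, both IMQ libraries lay above both Sham libraries in Coch/Dkk2/Crabp1 fibroblasts and below both in another class, with a call in each direction. The log2 fold change of C2 in Coch/Dkk2/Crabp1 fibroblasts exceeded that in macrophages by 5.21 and that in keratinocytes by 3.46. For C4b the Coch-gated fibroblasts exceeded macrophages by 6.88. These 3 differences were not tested. The macrophage values of C2 rest on 3, 79, 3, 6, 3 and 1 UMIs, and Sham 1 held 35 Coch-gated cells. The share of resident-type cells among macrophages was lower in IMQ than in Sham, and its part in the macrophage values of C2 and C4b was not tested.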

How the results depend on the processing

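Of 27 member results past the threshold, 324 values under alternatives gave 242 calls kept, 82 lost and 0 reversed. Leaving out Sham 2 lost 26, all but C2 in keratinocytes, and the cause was not tested beyond the few cells of Sham 1 in the Coch and monocyte-type gates. DESeq2 lost 10, the stricter and looser gate margins 4 each, and the 5% mitochondrial limit 1. The class of highest level of each member was the same under the alternatives tried. The mitochondrial limit for the fits, the differences of response, the C1q ratio and all fits of resident-type, monocyte-type, Langerhans and lymphatic cells were added after seeing the data. A group of 2 libraries, 1 when a library is left out, limits each test, and the lone library is then assumed to vary like the others.

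The number of members called for IMQ against Sham was 3 in macrophages and became 1 by DESeq2 and 6 without the filter. It was 4 in monocyte-type macrophages and became 0 by DESeq2 and 6 without the filter. In mural cells it went from 1 to 2 by DESeq2 and without the filter, and to 0 at the stricter margin and the 5% mitochondrial limit. In keratinocytes it went from 2 to 1 at the stricter margin, and in Cyp2f2/Lum fibroblasts from 2 to 1 at both other margins and 3 without the filter. Without the filter it went from 0 to 2 in fibroblasts, 1 in the Plac8 gate, 3 in blood endothelial and 1 in Langerhans cells. For IMQ+SHP099 against Sham it went without the filter from 0 to 2 in fibroblasts, 1 in blood endothelial, 2 in mural and 2 in Langerhans cells, and from 1 to 3 in macrophages and 2 in keratinocytes. In keratinocytes it was also 2 by DESeq2, 0 at the stricter margin and 2 at the 5% limit. In mural cells it was 2 by DESeq2 and 1 at the 5% limit, and in the Cyp2f2 gate 1 at the looser margin. For IMQ+SHP099 against IMQ it went from 0 to 4 in monocyte-type macrophages without the filter.

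With 1 library left out at a time, the number called for IMQ against Sham ran from 0 to 1 in fibroblasts, 0 to 4 in the Coch gate, 0 to 1 in the Cyp2f2 gate, 0 to 6 in macrophages, 0 to 1 in keratinocytes, 0 to 1 in blood endothelial cells, 0 to 2 in mural cells, 0 to 1 in resident-type and 0 to 6 in monocyte-type macrophages. For IMQ+SHP099 against Sham it ran from 0 to 1 in fibroblasts, 0 to 4 in the Coch gate, 0 to 1 in the Cyp2f2 gate, 0 to 5 in macrophages, 0 to 1 in keratinocytes, blood endothelial cells, mural cells and resident-type macrophages, and 0 to 6 in monocyte-type macrophages, where IMQ+SHP099 against IMQ gave 0 to 3. Differences of response gave 0 to 4 members for Coch against either other gate, 0 to 2 for Cyp2f2 against Plac8 and 0 to 6 for the macrophage gates.

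The labels tie same-numbered libraries by their number alone. Correlations of their deviations from the group means ran from -0.133 to 0.244 over 12 class sums and were over 0.2 for all pairs of groups in Langerhans cells only, so that a pairing was not established and a shared batch was not excluded. With the replicate number as a block, for IMQ against Sham, 5 members instead of 3 were called in macrophages, where C1qa (log2 fold change -1.75, edgeR adjusted p = 0.0121) and C1qc (-1.51, adjusted p = 0.0271) were added. In monocyte-type macrophages 5 instead of 4 were called, with C1qc added (-2.05, adjusted p = 0.00693). In all, 0 of the 27 calls were lost.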

Other observations

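Some members were found in classes with too few cells in several libraries for a comparison. Neutrophils held C3 at 168.5, 171.1 and 237.9 UPM in IMQ 1, IMQ 2 and IMQ+SHP099 2, and 34.9%, 36.7% and 37.6% of them held a C3 UMI. In mast cells and basophils C5ar1 stood at 215.3 UPM in Sham 2, 131.6 UPM in IMQ 1 and 246.3 UPM in IMQ 2.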
